A study of Mus musculus with 5 samples.

Results

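Endothelial cells of the mouse kidney were described from single-cell RNA sequencing of kidneys taken along the course from acute kidney injury (AKI) to chronic kidney disease. A cell barcode was counted as endothelial when it held at least 500 unique molecular identifiers (UMIs, each standing for 1 captured transcript molecule), at least 200 genes and at most 25% of its UMIs on mitochondrial genes, when at least 2 of the 5 endothelial genes Pecam1, Cdh5, Emcn, Egfl7 and Kdr had a UMI, and when it held no Ptprc UMI (leukocytes), at most 1 Lrp2 UMI (proximal tubule) and at most 1 Slc12a1 UMI (thick ascending limb). Of the 79202 barcodes that passed the limits on depth, genes and mitochondrial share, 678 held at least 2 of the 5 genes, 211 of these were left out by the other limits, and 467 remained, 0.590% of the filtered barcodes (95% exact binomial interval 0.537 to 0.645). The intervals given here cover counting error only.

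The series held 5 samples in 5 groups, a sham-operated group and 4 groups taken at day 1, day 3, day 14 and day 28 of recovery from unilateral ischemia-reperfusion (UIR), in which the renal pedicle of 1 side was clamped while the other kidney stayed intact. The labels say that each sample pooled kidneys of 3 mice, and the methods give young adult male C57BL/6J animals. Tissue was digested with collagenases and hyaluronidase, red blood cells were lysed, and droplet libraries were made with a 3' kit. The deposited matrix merged 5 libraries that are told apart by a number in the barcode name, and no label ties a library number to sham or to a day. The methods speak of more matrices before merging than the libraries found here, so whether a library is 1 preparation or several joined ones is not known. The libraries are therefore given by number, with no comparison between conditions, and the matrix as a whole counts as 1 pooled sample, so that no test was made.

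Endothelium forms the inner lining of every vessel and takes on a different form along the renal circulation. Glomerular capillaries are fenestrated and filter plasma into the nephron in close contact with podocytes, which secrete vascular endothelial growth factor. Peritubular capillaries and the vasa recta take up reabsorbed water and solutes, and loss of these small vessels is a known feature of kidneys that scar after ischemia. Ehd3, an endocytic trafficking protein, is commonly used as a marker of glomerular endothelium, and Plvap, the protein of fenestral diaphragms, as a marker of peritubular capillary and venous endothelium. Cells bearing these genes were therefore described apart.

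The labels give the cell type as goblet cell, a mucus-secreting cell of gut and airway. None of 7 goblet cell genes (Muc2, Tff3, Spdef, Fcgbp, Clca1, Agr2 and Zg16) had a UMI in the 467 endothelial barcodes, which by the exact interval allows up to 0.787% of barcodes with such a UMI and sets no limit on cells that make the transcript below detection, and over all filtered barcodes each of them was found in at most 0.0530% of barcodes. The endothelial label was checked against 26 pan-endothelial genes that the selection did not use. All 26 had UMIs in the endothelial barcodes, where they summed to 8237 CPM (the UMIs of a gene in each 1000000 UMIs summed over the barcodes), against 12.8 CPM in 34181 proximal tubule barcodes (at least 2 Lrp2 UMIs) and 126 CPM in 4076 leukocyte barcodes (with Ptprc). Ptprb, an endothelial phosphatase, stood at 878 CPM, the VEGF receptor Flt1 at 750 CPM and Adgrf5 at 746 CPM. The barcodes of both comparison classes held under 2 of the 5 gate genes by definition. The endothelial levels come from the barcodes that were selected, so that they describe the selection and give it no separate support.

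For orientation on the genome, Emcn lies at chr3:137341067-137432185 on the plus strand, Kdr at chr5:75932827-75978458 on the minus strand, Ehd3 at chr17:73804134-73832094 on the plus strand and Plvap at chr8:71497765-71511752 on the minus strand (GRCm38). Endothelial transcription is known to depend on ETS factors, which bind a GGAA core, and 4 of the 7 gate and subset genes had an entry in the promoter table used, Plvap not among them. For the gate genes Emcn and Kdr and the subset gene Ehd3, the 250 bases before the start annotated by RefSeq (GRCm38.p6) are shown, 5' to 3' on the strand of the gene. The regions are chr3:137340828-137341077 on the plus strand for Emcn, chr5:75978456-75978705 on the minus strand for Kdr and chr17:73804591-73804840 on the plus strand for Ehd3. The windows of Emcn and Kdr overlap the edge of the gene interval given above by a few bases, and that of Ehd3 lies wholly inside its interval. Capitals mark AGGAAG or its reverse complement CTTCCT, searched on both strands.
Emcn: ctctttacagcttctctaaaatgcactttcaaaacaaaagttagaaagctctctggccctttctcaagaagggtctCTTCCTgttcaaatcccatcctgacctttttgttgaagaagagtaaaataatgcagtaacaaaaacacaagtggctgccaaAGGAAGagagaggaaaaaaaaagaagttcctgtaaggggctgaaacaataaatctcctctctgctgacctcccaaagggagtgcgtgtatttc
Kdr: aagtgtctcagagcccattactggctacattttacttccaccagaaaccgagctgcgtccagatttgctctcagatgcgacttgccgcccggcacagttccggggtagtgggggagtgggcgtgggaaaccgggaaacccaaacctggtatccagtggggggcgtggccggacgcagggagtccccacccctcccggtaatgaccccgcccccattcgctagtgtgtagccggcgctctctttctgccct
Ehd3: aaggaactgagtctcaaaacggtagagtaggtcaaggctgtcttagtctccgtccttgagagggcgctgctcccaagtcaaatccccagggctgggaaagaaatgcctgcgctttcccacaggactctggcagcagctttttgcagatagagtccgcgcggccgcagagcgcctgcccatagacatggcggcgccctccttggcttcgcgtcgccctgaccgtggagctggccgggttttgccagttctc
The hexamer occurred 2 times in the Emcn window and 0 times in the windows of Kdr and Ehd3. It was present in 9686 of 32851 RefSeq promoter windows of this length (29.5%), and in 12 of 22 windows (54.5%) of the gate and pan-endothelial genes, of which 16 of 31 had an entry. A match is a description of letters and does not mark a bound site.

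Endothelial barcodes were unevenly spread over the libraries. Library 1 held 124, which was 1.24% of its filtered barcodes (1.03 to 1.47), and library 2 held 214, or 1.89% (1.65 to 2.16). Libraries 3, 4 and 5 held 95, 16 and 18, or 0.281%, 0.142% and 0.141%. The intervals of libraries 1 and 2 did not overlap each other or those of the other libraries, whereas libraries 4 and 5 could not be told apart. A share of this kind follows how many cells of every type were released and captured, and library 3, with 33839 filtered barcodes, also had the lowest median depth over all its filtered barcodes (1242 UMIs against 3190 to 4295 in the others).

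**Figure D1:**
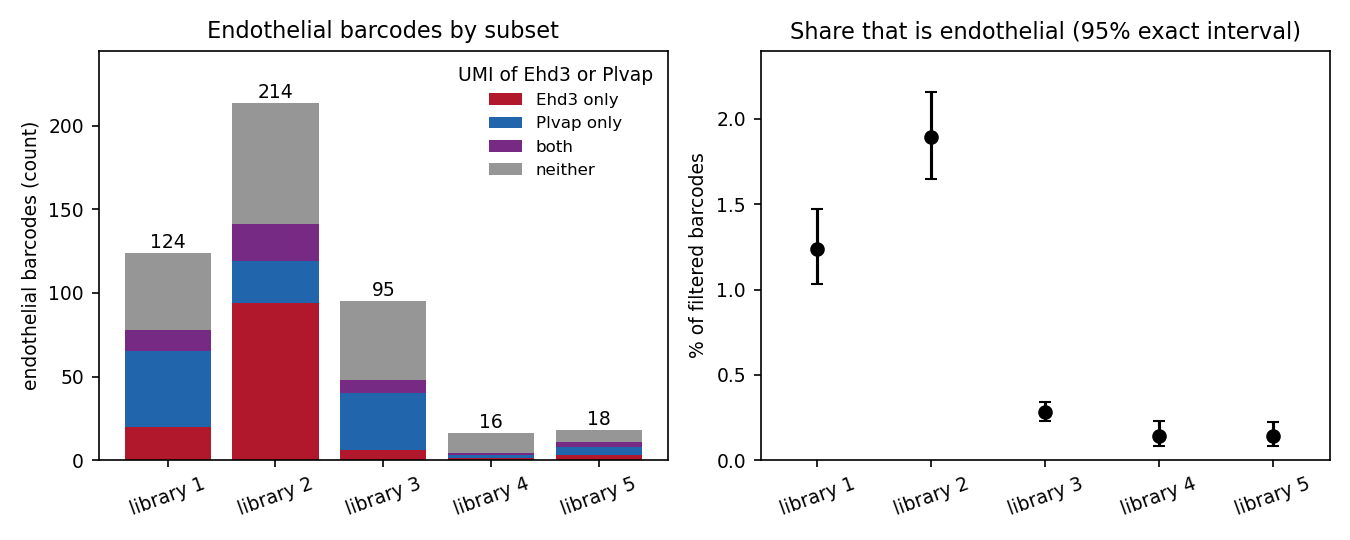
Left, the number of endothelial barcodes in each library, stacked by whether Ehd3, Plvap, both or neither had a UMI; right, their share of the filtered barcodes of the library with its exact 95% interval. Libraries 1 and 2 hold 124 and 214 of the 467 barcodes, and the Ehd3-only subset is largest in library 2.

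The 467 barcodes held 2108737 UMIs in all. Their median depth was 2432 UMIs (range 509 to 44974) and 1250 genes. By library the median was 3083, 1547, 3301, 2493 and 3369 UMIs in libraries 1 to 5, so that library 2, with the most endothelial barcodes, held the shallowest ones. No barcode sequence was shared among endothelial barcodes of different libraries, while 9 of the 467 recurred as a filtered barcode of another library. Over all filtered barcodes, 642 of 78554 distinct sequences occurred in more than 1 library. The latter counts sequences and the former barcodes, so that the 2 shares do not compare directly.

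The number of gate genes found in a barcode varied with depth. There were 122 barcodes with 2 of the 5 genes, 107 with 3, 115 with 4 and 123 with all 5. Barcodes just inside the limit, with exactly 2 genes, had a median of 967 UMIs and of 4 UMIs on the 26 pan-endothelial genes, and 13.9% had none of those genes. Just outside it, 659 barcodes with exactly 1 gene met the other limits, and 68.6% of them had none at a median of 1043 UMIs. Barcodes with all 5 genes had a median of 6593 UMIs and 69 pan-endothelial UMIs.

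Emcn, a sialomucin of capillary and venous endothelium, was the gate gene found most often, in 87.2% of endothelial barcodes. Egfl7, a secreted vessel matrix protein, was found in 71.1%, Pecam1 (CD31) in 67.9%, Cdh5, the cadherin of endothelial junctions, in 65.7%, and Kdr, the main signalling receptor for VEGF, in 59.3%. As summed levels Emcn stood at 1287 CPM, Egfl7 at 749, Pecam1 at 602, Cdh5 at 550 and Kdr at 534 CPM. In proximal tubule barcodes the same 5 genes lay between 0.108 and 1.49 CPM.

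Pecam1 and Cdh5 varied little between libraries and Kdr varied most. Pecam1 ran from 548 CPM in library 3 to 679 CPM in library 4, with overlapping intervals in those 2 libraries. Kdr stood at 212, 1039, 252, 154 and 160 CPM in libraries 1 to 5, so that library 2 was high and the other libraries lay within a narrow range. Emcn was 1351 and 1546 CPM in libraries 1 and 2, 773 and 756 in libraries 3 and 4, and 1182 CPM in library 5.

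An Ehd3 UMI was found in 171 of the 467 barcodes (36.6%, 32.2 to 41.2) and a Plvap UMI in 158 (33.8%, 29.5 to 38.3). The barcodes split into 124 with Ehd3 only, 111 with Plvap only, 47 with both and 185 with neither. The depth of these subsets differed: the median was 1693 UMIs in Ehd3-only, 4567 in Plvap-only, 6006 in both and 1827 in neither. A barcode without a UMI of either gene may hold transcripts that were not captured, and the neither subset is not a cell type.

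Both shares lay above those in cells that should lack these genes, where free RNA can give a UMI. In proximal tubule barcodes, at a median of 6250 UMIs, 0.351% held an Ehd3 UMI and 0.117% a Plvap UMI, and in leukocyte barcodes, at a median of 1982 UMIs, the shares were 2.67% and 0.270%. After thinning each barcode to 1000 UMIs, which left 368 of the 467, Ehd3 was found in 21.7% (17.6 to 26.3) and Plvap in 18.2% (14.4 to 22.5), against 0.1% and 0.0333% of 3000 thinned proximal tubule barcodes.

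The Ehd3-bearing barcodes were concentrated in library 2. Its endothelial barcodes held Ehd3 in 54.2%, against 26.6%, 14.7%, 12.5% and 33.3% in libraries 1, 3, 4 and 5. At the equal depth of 1000 UMIs the share was 40.7% (32.6 to 49.2) of 145 barcodes in library 2, 9.73% of 113 in library 1 and 8.75% of 80 in library 3. Libraries 4 and 5 had only 12 and 18 barcodes at that depth, with 0% and 16.7%, and the 0 of 12 allows a share of up to 26.5%.

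Plvap ran the other way between the larger libraries. At equal depth it was found in 22.1% (14.9 to 30.9) of barcodes in library 1, 16 of 145 (6.44% to 17.3%) in library 2 and 27.5% (18.1 to 38.6) in library 3. The intervals of libraries 1 and 2 overlapped, and those of libraries 2 and 3 did not.

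Transcripts of other cells were unevenly present, and library 2 stood apart. Of 6 podocyte markers (among them Nphs1, Synpo, Cdkn1c, Magi2 and Clic3), at least 2 UMIs were found in 80 of 124 Ehd3-only barcodes (64.5%), 18 of 111 Plvap-only (16.2%), 23 of 47 with both (48.9%) and 47 of 185 with neither (25.4%). By library the share was 61.7% in library 2, 21.0% in library 1, 7.37% in library 3, 18.8% in library 4 and 0% in library 5. In proximal tubule barcodes it was 1.68%, and 2.61% in those of library 2. Summed over the 6 markers, the level was 2190 CPM in Ehd3-only and 133 CPM in Plvap-only barcodes.

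Haemoglobin genes (Hba-a1, Hba-a2, Hbb-bs and Hbb-bt) showed the same library. At least 2 of their UMIs were found in 101 endothelial barcodes, all of them in library 2 (47.2% of its endothelial barcodes), including 65 of its 94 Ehd3-only barcodes (69.1%) and 3 of its 25 Plvap-only barcodes. In the proximal tubule barcodes of library 2 the share was 2.25%. Libraries 1, 3, 4 and 5 had 0 such endothelial barcodes, and 1 library held 1 haemoglobin UMI.

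Smooth muscle and renin cell genes (Acta2, Myh11, Cnn1 and Ren1) reached 2 UMIs in 51 barcodes (10.9%), 10 of the Ehd3-only, 15 of the Plvap-only, 13 with both and 13 with neither. Leukocyte markers did so in 26 of 124 Ehd3-only and 8 of 111 Plvap-only barcodes, and the neutrophil genes S100a8 and S100a9 stood at 132 and 305 CPM in Ehd3-only against 7.83 and 6.27 CPM in Plvap-only barcodes. A single Ehd3-only barcode held 83.7% of the S100a9 UMIs and a single one 85.7% of the S100a8 UMIs, and S100a9 was found in 4 barcodes of each subset. Proximal tubule markers summed to 6242 and 6521 CPM in the Ehd3-only and Plvap-only barcodes, against 61359 CPM in proximal tubule barcodes. No doublet caller was run, and the part of these transcripts in the results below was not tested.

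**Figure D2:**
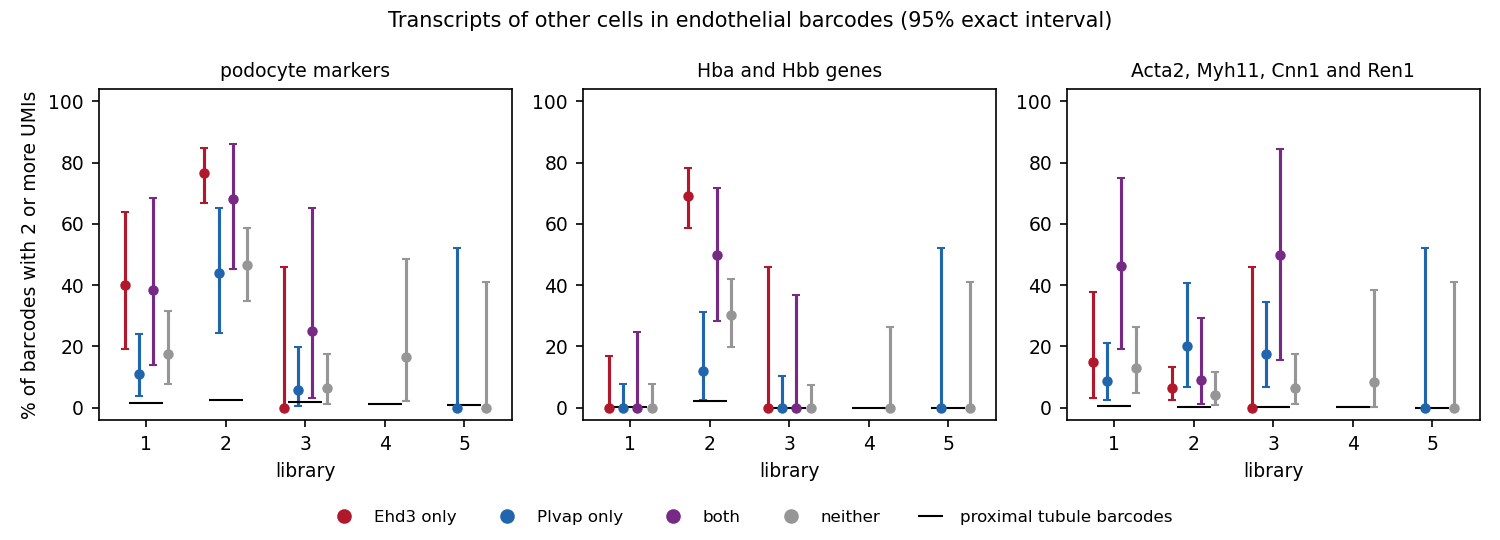
Share of endothelial barcodes with at least 2 UMIs of podocyte markers, haemoglobin genes, or smooth muscle and renin cell genes, by library (horizontal axis) and subset (colours), with exact 95% intervals; subsets under 5 barcodes are not drawn, and black bars give proximal tubule barcodes of the same library. Podocyte markers and haemoglobin genes are highest in the Ehd3-only barcodes of library 2 (76.6% and 69.1%).

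The 2 subsets that each bear a single gene were compared by the ratio of their summed levels, over 3581 genes with at least 50 UMIs in the 2 subsets together and with Ehd3 and Plvap left out. The ratio is given as a log2 value, Ehd3-only over Plvap-only, with an exact 95% interval for counting error. At least 2-fold higher in Ehd3-only barcodes were 223 genes (6.23% of those compared), and at least 2-fold higher in Plvap-only barcodes 114 (3.18%). On the same side in both libraries with at least 20 barcodes of each subset (libraries 1 and 2) were 165 (4.61%) and 94 (2.62%). This condition asked for the same sign only, with no UMI minimum within a library. S100g, for example, met it with 1 UMI in each subset of library 2. Both libraries are also part of the ratio over all libraries, so that the condition is no replication. The median over all compared genes was 0.07. Since the subsets were chosen by expression in these barcodes and there is 1 pooled sample, the ratios are a description. Library 2 held 94 of the 124 Ehd3-only but 25 of the 111 Plvap-only barcodes. A ratio over all libraries, and a count of called genes, can therefore also hold differences between libraries. Such a ratio can lie outside the values of libraries 1 and 2, as for Igfbp5 (2.07 against 0.20 and 1.77). After the values were seen, each call was also read over the 44 Ehd3-only and 93 Plvap-only barcodes with under 2 podocyte marker UMIs, and without the single barcode that held most UMIs of the gene in the higher subset. Members of the endothelial and pathway lists whose ratio fell short of 2-fold in either reading are named, and a ratio that stayed past 2-fold there can rest on under 50 UMIs. All lists were chosen with earlier results of these data known. The called share of a list, set beside that of all genes, is therefore a description and gives no separate support.

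Among the gate genes, Kdr differed between the subsets. It stood at 1374 CPM in Ehd3-only, 222 in Plvap-only, 617 in both and 195 in neither, a log2 ratio of 2.63 (2.36 to 2.90), and was found in 100 of 124 and 70 of 111 barcodes. The ratio was 1.31 in library 1 and 2.61 in library 2. Emcn had a log2 ratio of 0.63 (0.48 to 0.77) from 1873 and 1211 CPM, but it was -0.57 in library 1 and 1.15 in library 2, so that its direction depended on the library. Pecam1, Cdh5 and Egfl7 had ratios of -0.24, -0.31 and -0.13. The selection itself asked for UMIs of these 5 genes, and the Ehd3-only barcodes were shallower (median 1693 against 4567 UMIs). The part of the selection in the ratios of Kdr and the other gate genes, here and below, was not tested.

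The glomerular list was higher in Ehd3-only barcodes. Of its 10 genes, 8 reached the minimum, 6 were at least 2-fold higher in Ehd3-only (75.0%, against 6.23% of all genes) and 0 in Plvap-only barcodes, and the median log2 ratio was 1.55 against 0.07 over all genes. Plat, the tissue plasminogen activator that starts fibrinolysis, stood at 2100.4 CPM in Ehd3-only, 186 in Plvap-only, 1033 in both and 296 in neither, a ratio of 3.49 (3.22 to 3.78). It was 0.52 in library 1 (-0.07 to 1.10, an interval that includes 0) and 4.03 in library 2, and over the libraries all endothelial barcodes gave 256, 1672, 143, 432 and 361 CPM. Plat lies at chr8:22757727-22782844.

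The other called genes of the glomerular list were Lpl (lipoprotein lipase), Hecw2 (a ubiquitin ligase), Nostrin (a trafficking protein of nitric oxide synthase), the transcription factor Tbx3 and the inhibitory Smad6. Their levels in Ehd3-only and Plvap-only barcodes were 345 and 28.2 CPM for Lpl, 168 and 50.1 for Hecw2, 166 and 50.1 for Nostrin, 237 and 90.9 for Tbx3 and 68.6 and 32.9 for Smad6. Lpl had ratios of 2.09 in library 1 and 3.21 in library 2, while proximal tubule barcodes held it at 357 CPM. Without podocyte-marker barcodes the calls of Smad6 (log2 0.12, -1.93 to 1.77) and Hecw2 (0.79, -0.38 to 1.85) fell short of 2-fold. Of the 4 genes past 2-fold there, Plat and Tbx3 also met the UMI minimum, whereas Nostrin (1.29) had 12 and 20 UMIs and Lpl 35 and 13, and Smad6 also came to 0.97 without 1 barcode. In library 1 the intervals of Smad6, Nostrin, Hecw2 and Tbx3 included 0.

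Of the 2 other compared members neither was called. Pi16, a secreted peptidase inhibitor, had 326 and 273 CPM (log2 0.26, -0.07 to 0.59). Fabp4, a fatty acid binding protein of capillaries, stood at 837 CPM in Ehd3-only, 1341 in Plvap-only and 1921 in barcodes with neither gene, a ratio of -0.68 (-0.86 to -0.50). The Fabp4 ratio was -0.65 in library 1 and 0.05 (-0.24 to 0.34) in library 2. Without podocyte-marker barcodes it was -1.30 (-1.66 to -0.95) on 75 and 750 UMIs, past 2-fold toward Plvap-only barcodes. Gata5, a transcription factor, had too few UMIs for the comparison but lay on the Ehd3 side, with 16 in Ehd3-only barcodes (11 of 124) and 0 in Plvap-only, in 5 of 47 barcodes with both, and in 0 of 185 with neither.

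**Figure D3:**
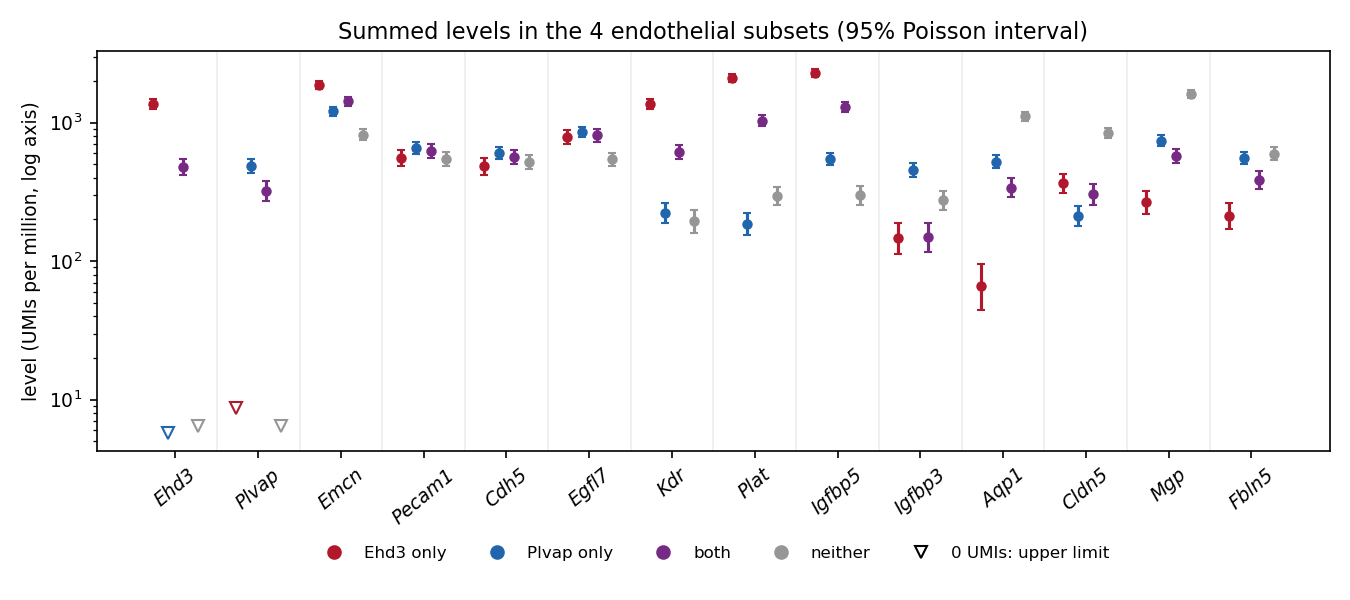
Summed level in CPM (log axis) of 14 genes in the Ehd3-only, Plvap-only, both and neither barcodes, with 95% Poisson intervals; open triangles mark the upper limit where a subset held 0 UMIs, as the subset definition requires for Ehd3 and Plvap. Kdr, Plat and Igfbp5 are highest in Ehd3-only barcodes, and Aqp1 and Mgp in barcodes with neither gene.

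Of the peritubular and medullary capillary list, 6 of 10 genes were compared, with 2 higher in Ehd3-only (33.3%) and 1 in Plvap-only barcodes (16.7%), against 6.23% and 3.18% of all genes. Igfbp3, a carrier of insulin-like growth factors, was higher in Plvap-only barcodes (454 against 147 CPM, log2 -1.63, -2.05 to -1.23), in library 1 (-1.48) as in library 2 (-2.29). Igfbp5, a related carrier, went the other way (2299 against 548 CPM, log2 2.07, 1.89 to 2.25), with 0.20 in library 1 and 1.77 in library 2. Esm1 (endocan, a VEGF-induced proteoglycan) had 232 and 48.6 CPM, a call that ended without podocyte-marker barcodes (0.58), and Npr3 (the clearance receptor of natriuretic peptides) 63.9 and 12.5 CPM, below the UMI minimum.

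Of 6 genes of the descending vasa recta, 4 were compared, 2 were higher in Plvap-only barcodes (50%, against 3.18% of all genes) and 0 in Ehd3-only barcodes. The called genes were Aqp1 and Scin, and only Scin was on the same side in libraries 1 and 2. Fxyd6, a regulator of the sodium pump, had 125 and 241 CPM (log2 -0.94), and Slc5a3, an inositol transporter, 54.4 and 62.7 CPM (-0.20, an interval of -1.01 to 0.57). Aqp1, the water channel of the vasa recta and of proximal tubule, stood at 66.2 CPM in Ehd3-only, 523 in Plvap-only, 340 in both and 1113 in neither, against 189 CPM in proximal tubule barcodes, and its log2 ratio was -2.98 (-3.59 to -2.42). In library 1 the ratio was -2.80 and in library 2 it was 0.19. A barcode of library 1 held 34.4% of the Aqp1 UMIs of the Plvap-only subset, and without it the ratio was -2.39 over all libraries and -0.92 in library 1. Scin, an actin-severing protein, had 11.8 and 132 CPM (log2 -3.48), and Slc14a1, the urea transporter of the vasa recta, 4.73 CPM in Ehd3-only, 65.8 in Plvap-only and 95.8 in neither, on 2 and 42 UMIs in the first pair, below the minimum. Slc14a1 was found in 9 of 111 Plvap-only barcodes, and 1 of them held 45.2% of its UMIs there.

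Aqp1, Scin and Slc14a1 also differed between libraries. Aqp1 stood at 278, 94.7, 882, 3287 and 3085 CPM in libraries 1 to 5, Scin at 80.7, 23.4, 167, 309 and 421, and Slc14a1 at 34.8, 8.61, 107, 201 and 240 CPM. Each was lowest in library 2 and highest in libraries 4 and 5, which held only 16 and 18 endothelial barcodes, although for Scin and Slc14a1 the intervals of libraries 3 and 4 overlapped. For library 4 against the other libraries, the log2 ratio of Aqp1 was -0.23 in proximal tubule and 2.82 in endothelial barcodes. For library 5 the values were 0.40 and 2.86, and those of Scin -3.19 and 2.35. The part of tubule transcripts in these levels was not tested.

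Of the 12 arterial genes, 10 were compared, 4 were higher in Plvap-only (40.0%, against 3.18% of all genes) and 1 in Ehd3-only barcodes (10%, against 6.23%). Sox17, an arterial transcription factor, had 237 against 94.6 CPM (log2 -1.32, and -0.51 with an interval of -1.63 to 0.50 in library 1), the elastic fibre protein Fbln5 558 against 213 (-1.39), the calcification inhibitor Mgp 744 against 267 (-1.48) and the connexin Gja4 207 against 97.0 CPM (-1.09, but 0.25 in library 1). Dll4, a Notch ligand of arterial and sprouting endothelium, was higher in Ehd3-only barcodes with 220.0 against 61.1 CPM (log2 1.85), with 1.65 and 1.07 in libraries 1 and 2. Only 1 of the 4 calls toward Plvap-only barcodes, Mgp, remained without podocyte-marker barcodes, where Sox17 came to -0.80 (-1.72 to 0.02), Gja4 to -0.59 (-1.42 to 0.16) and Fbln5 to -0.71. The Mgp call in turn rested on 1 barcode of library 1 with 46.7% of its Plvap-only UMIs: without it the ratio was -0.59 (-0.93 to -0.27), and 0.86 within library 1. Gja4 came to -0.94 without 1 barcode. Mgp and Fbln5 were as high or higher in barcodes with neither gene, at 1609 and 599 CPM.

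Venous and lymphatic genes were scarce. Among 8 venous genes, 3 were compared and 1 called (33.3%, against 3.18%). Vcam1, an adhesion molecule for leukocytes, was higher in Plvap-only barcodes (113 against 30.7 CPM, log2 -1.88), with -1.51 over all libraries and -0.04 in library 1 without 1 barcode of that library. Ackr1, a chemokine-binding receptor of venules, had 0 UMIs, Vwf 34 and Selp 37. The lymphatic regulator Prox1 had 9 UMIs, Lyve1 4, Mmrn1 3 and Reln 2 in all 467 barcodes, so that a lymphatic subset was not detectable at this depth.

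The pan-endothelial list was close to even between the subsets. Of 25 compared genes, 1 was higher in Ehd3-only (4% against 6.23% of all genes) and 2 in Plvap-only barcodes (8% against 3.18%), with a median of -0.17. The exceptions were Gpihbp1, which holds lipoprotein lipase on capillaries (468 against 149 CPM, log2 1.65, but -0.47 in library 1), the adhesion receptor Adgrl4 (378 against 953 CPM, -1.33) and Ecscr, an endothelial surface protein (194 against 467 CPM, -1.27), and none of these 3 calls remained without podocyte-marker barcodes (0.59, -0.74 and -0.95). Cldn5, a tight junction protein, was highest in barcodes with neither gene (843 CPM against 364 in Ehd3-only and 213 in Plvap-only).

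In the signalling lists, 3 of 9 compared genes of VEGF and angiopoietin signalling were higher in Ehd3-only barcodes (33.3%, against 6.23% of all genes), and 0 were higher in Plvap-only. The VEGF co-receptor Nrp1 stood at 901 against 252 CPM (log2 1.84, with 0.98 and 1.75 in libraries 1 and 2), and the ligand Vegfa at 222 against 12.5 CPM (4.15). Podocytes are a known source of Vegfa, and their markers reached 2 UMIs in 64.5% of Ehd3-only barcodes. The part of podocyte transcripts in the Vegfa ratio was not tested. Esm1 was the third, and without podocyte-marker barcodes its call ended while Nrp1 (1.67) and Vegfa, on 11 UMIs (3.44), stayed past 2-fold. Apln, a peptide of sprouting endothelial cells, had 30 UMIs in Ehd3-only and 0 in Plvap-only barcodes, below the minimum. The receptors Tek and Tie1 lay at 187 and 203 CPM in Ehd3-only and 241 and 257 CPM in Plvap-only barcodes. Of 6 compared Notch genes 1 was called (16.7%, against 6.23%), Dll4. Of 11 compared genes of the BMP and TGF-beta list 1 was called in each direction (9.09%, against 6.23% and 3.18%). Id1, a target of BMP signals, was higher in Plvap-only barcodes (606 against 244 CPM, log2 -1.32), and Smad6 in Ehd3-only barcodes, the latter ending without podocyte-marker barcodes as above.

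Of 6 compared genes of vascular tone, 1 was called in each direction (16.7%, against 6.23% of all genes toward Ehd3-only and 3.18% toward Plvap-only barcodes). Edn1, the vasoconstrictor endothelin, was higher in Plvap-only barcodes (174 against 52.0 CPM, log2 -1.74), and its receptor Ednrb in Ehd3-only barcodes (440 against 212 CPM, 1.06, but -1.12 in library 1 and -0.43 without library 2). Nos3, the nitric oxide synthase of endothelium, had 102 and 154 CPM. Of 6 compared genes of coagulation and fibrinolysis, Plat and the urokinase receptor Plaur were higher in Ehd3-only and the anticoagulant receptors Thbd (577 against 258 CPM, log2 -1.16) and Procr (67.4 against 18.9 CPM, -1.83) in Plvap-only barcodes, which is 33.3% in each direction against the same 6.23% and 3.18%. Without podocyte-marker barcodes the calls of Edn1 (-0.66), Plaur (-0.48), Thbd (-0.45) and Procr (-0.82) ended, and those of Plat and Id1 (-1.35) did not. Ednrb had 1.12 there, but 0.42 (-0.44 to 1.20) when haemoglobin-bearing barcodes were left out too. The flow-dependent factors Klf4 and Klf2 stood at 1284 and 598 CPM in Ehd3-only and 2179 and 787 CPM in Plvap-only barcodes, below a 2-fold difference, and 1 of 8 genes of that list was called (12.5%, against 3.18%: Klf10, -1.34).

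Among 11 compared genes of leukocyte adhesion, 3 were higher in Ehd3-only (27.3%) and 2 in Plvap-only barcodes (18.2%), against 6.23% and 3.18% of all genes. The membrane chemokine Cx3cl1 had 227 against 29.8 CPM (log2 2.93, with 2.16 and 2.73 in libraries 1 and 2). Podxl, a sialomucin of endothelium that podocytes also carry, had 1509 against 749 CPM (1.01), and the interferon-induced chemokine Cxcl10 161 against 32.9 CPM (2.29, but -2.01 in library 1), with 54.4% of its Ehd3-only UMIs in 1 barcode and 1.21 without it. Without podocyte-marker barcodes the calls of Podxl (0.30) and Cxcl10 (0.65) ended, and Podxl came to 0.95 without 1 barcode. Jam2, a junctional adhesion molecule, was higher in Plvap-only barcodes (454 against 156 CPM, -1.54). Icam1, the integrin ligand for leukocyte arrest, had 147 and 190 CPM, and 437 CPM in barcodes with both genes, where 1 barcode of library 1 held 45.9% of the UMIs and the level without it was 244 CPM. The selectin Sele had 13 UMIs. Of 11 compared junction genes, Jup (plakoglobin, 182 against 86.2 CPM, 1.08) was higher in Ehd3-only (9.09%, against 6.23%) and Jam2 and Gja4 in Plvap-only barcodes (18.2%, against 3.18%), and only the call of Jam2 remained without podocyte-marker barcodes (-1.53) and without 1 barcode (-1.45).

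Of 7 compared genes of lipid handling, 3 were higher in Ehd3-only (42.9%, against 6.23% of all genes) and 1 in Plvap-only barcodes (14.3%, against 3.18%). Gpihbp1, Lpl and the fatty acid carrier Fabp5 (85.2 against 32.9 CPM, log2 1.37) were higher in Ehd3-only and the fatty acid transporter family member Slc27a3 (75.2 against 18.9 CPM, -1.99) in Plvap-only barcodes. Without podocyte-marker barcodes only Lpl and Slc27a3, the latter on 0 and 35 UMIs, stayed past 2-fold, both below the UMI minimum. Of 18 compared endothelial transcription factors, 1 was higher in Ehd3-only barcodes (5.56%, below the 6.23% of all genes) and 2 in Plvap-only barcodes (11.1%, against 3.18%). Tbx3 was higher in Ehd3-only and Sox17 and Foxp1 (470.0 against 215 CPM, -1.13) in Plvap-only barcodes, and only the call of Tbx3 remained in that set. Of 6 compared hypoxia response genes 1 was called (16.7%, against 6.23%), Vegfa, which proximal tubule barcodes held at 85.4 CPM.

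Of 14 interferon-stimulated genes compared, 3 were higher in Plvap-only (21.4%, against 3.18% of all genes: Ifi27l2a -1.83, Ifit3 -1.23 and Ifit1 -1.01, the last -0.76 without 1 barcode) and 0 in Ehd3-only barcodes, with a median of -0.77. Ifitm3, an antiviral membrane protein, stood at 1916 and 3398 CPM (-0.83). Without podocyte-marker barcodes only Ifi27l2a stayed past 2-fold (-1.27). Of 9 MHC genes 1 was called (11.1%, against 3.18%: Psmb8, -1.20, and -0.75 without podocyte-marker barcodes), while the class I gene H2-K1 had 944 and 1127 CPM and B2m 1053 and 1051 CPM. Cd74, the class II chaperone, stood at 74.9 CPM over all endothelial barcodes and 8518 CPM in leukocyte barcodes, and the class II activator Ciita had 0 UMIs.

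Matrix, caveolar and mesenchymal genes were described in the same way. Of 10 basement membrane genes, Col4a3 and Col4a4, collagen IV chains of the mature glomerular basement membrane, were higher in Ehd3-only barcodes (20%, against 6.23% of all genes, with log2 3.49 and 3.32, at 113 and 134 CPM in proximal tubule barcodes), whereas the general chains Col4a1 (357 and 389 CPM) and Col4a2 (338 and 346 CPM) and the matrix protein Sparc (2207 and 2110 CPM) were near even. Podocyte markers reached 2 UMIs in 64.5% of Ehd3-only barcodes, and the part of podocyte transcripts in the Col4a3 and Col4a4 ratios was not tested. Both calls stayed past 2-fold without podocyte-marker barcodes, where a ratio can rest on under 50 UMIs. Of 9 caveolar and fenestral genes 0 were called, where 6.23% and 3.18% of all genes were. Of 7 compared genes of mesenchymal transition 2 were higher in Ehd3-only (28.6%, against 6.23%: Acta2 and Col1a2) and 1 in Plvap-only barcodes (14.3%, against 3.18%: S100a4, 995 against 362 CPM, -1.46, and -0.66 without podocyte-marker barcodes). Acta2, smooth muscle actin, had 939 and 244 CPM (1.94, with 3.62 in library 1 and -0.64 in library 2), and Vim 1455 and 2548 CPM (-0.81). Acta2 was found in 15 of 124 Ehd3-only and 18 of 111 Plvap-only barcodes. Single barcodes held 31.5% and 31.4% of its UMIs in these subsets. Of 14 immediate early genes and 10 heat shock genes 0 were called, to be read against the same shares of all genes.

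Clec4e, Tnf and most cell cycle genes gave few counts. Of the cell cycle list 1 gene was compared and 0 were called, which says little where 6.23% and 3.18% of all genes were. Fos, an immediate early gene that tissue digestion is known to induce, stood at 4610 CPM in endothelial and 1384 CPM in proximal tubule barcodes. The cell cycle genes Mki67 and Top2a had 6 and 8 UMIs in 467 barcodes. For the receptor and cytokine that the study is about, Clec4e (Mincle) had 6 UMIs in endothelial barcodes, or 2.85 CPM against 219.5 CPM in leukocyte barcodes, and Tnf had 10 UMIs, or 4.74 against 108 CPM. The TNF receptor Tnfrsf1a stood at 184 CPM and the NF-kappa-B inhibitor Nfkbia at 717 CPM in endothelial barcodes. Between the subsets 0 of 3 compared genes of the TNF and Mincle list were called. With 6.23% and 3.18% of all genes called, so few genes cannot show a lack of difference.

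Among the called genes on the same side in libraries 1 and 2, the 15 with the largest ratio toward Ehd3-only barcodes included the podocyte transcription factor Wt1, at 97 UMIs against 0, a log2 ratio of at least 5.61. Larger ratios without that condition included those of the haemoglobin genes Hba-a1 (6.93) and Hbb-bs (6.75) and of the podocyte genes Nphs1 (6.84) and Clic3 (at least 6.11). The others included Ildr2 (5.05), Dpp4 (4.94), the cell cycle inhibitor Cdkn1c (4.40), Sema5a (4.23), Vegfa (4.15) and Enpep (aminopeptidase A, 4.07). Tmem26, Lpl, Mapt, Plat, Col4a3, Ctdspl and Itgb5 lay between 3.74 and 3.33. Wt1 was found in 38 of the 124 Ehd3-only barcodes and in 0 of the 111 Plvap-only barcodes, and Plat in 103 and 56.

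By the same condition the 15 leading genes toward Plvap-only barcodes began with Ren1 (renin, log2 -5.40) and S100g (a calcium-binding protein of distal tubule, -3.80), but a single barcode held 86.3% of the Ren1 UMIs and 74.6% of the S100g UMIs of that subset. Most of the other leading genes were spread over more barcodes. Scin (-3.48) was found in 34 of 111, Lgr5 (a receptor for R-spondins, 90.9 against 11.8 CPM, -2.94) in 30, Plac8 (470.0 against 114 CPM, -2.05) in 67 and Tspan8 (a tetraspanin, 2179 against 532 CPM, -2.03) in 63. Gask1b, Fam181b, Qpct, Rgcc (a hypoxia-responsive cell cycle regulator), Abca1 (a cholesterol exporter), Hs3st1, Serpinb9 and Slc27a3 lay between -3.02 and -1.99.

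**Figure D4:**
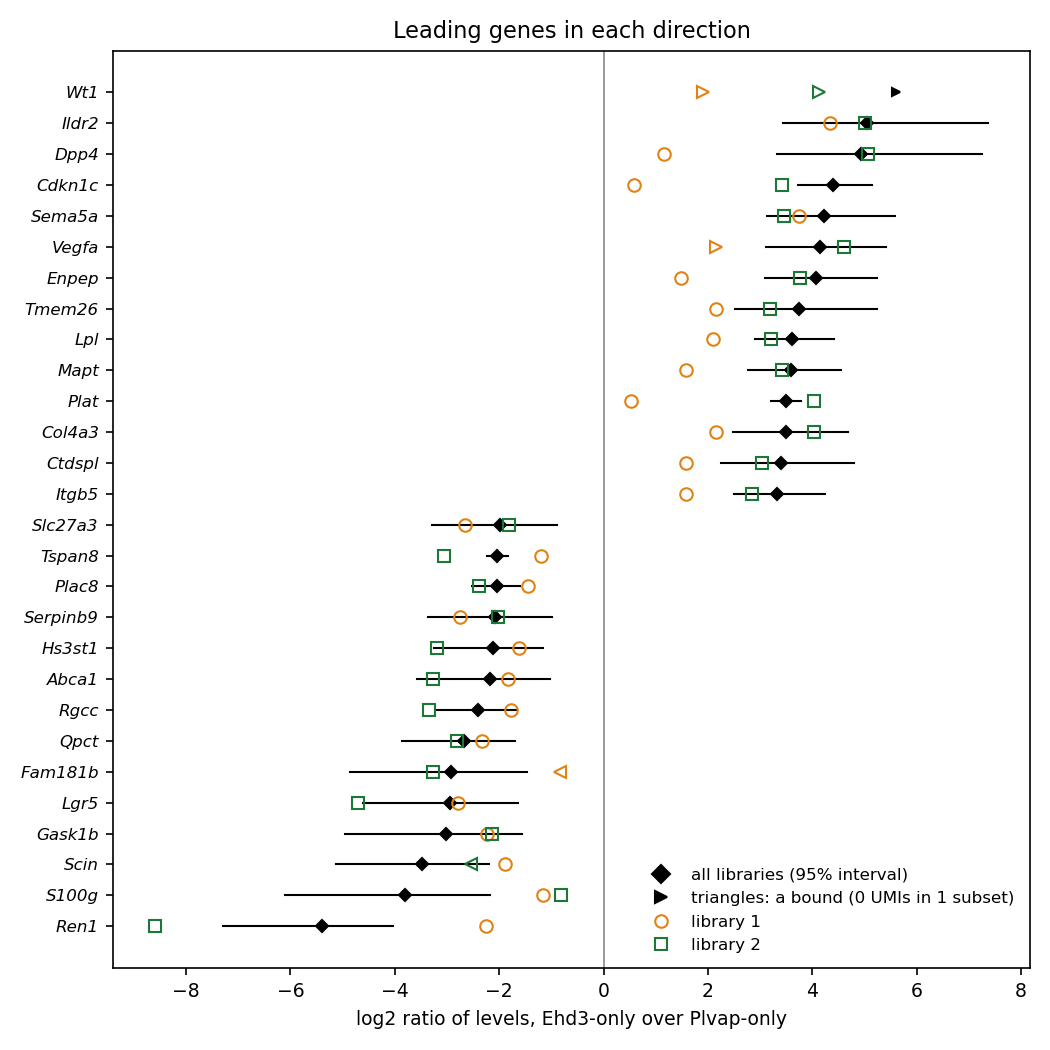
Log2 ratio of summed levels, Ehd3-only over Plvap-only, for 14 of the 15 leading genes in each direction, with the 95% interval over all libraries (black) and the values in library 1 (orange) and library 2 (green); triangles are bounds where 1 subset held 0 UMIs. Library 1 lies nearer to 0 than library 2 for most genes higher in Ehd3-only barcodes, for example 0.52 against 4.03 for Plat.

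Because podocyte transcripts moved with the Ehd3-only subset, the whole comparison was repeated on barcodes with under 2 podocyte marker UMIs. This left 299 endothelial barcodes, and 45 and 59 of 1855 compared genes were at least 2-fold higher in each. The set was not free of other-cell transcripts. Of the markers called toward Ehd3-only barcodes before, 2 of 5 podocyte, 3 of 3 leukocyte and 4 of 4 platelet and erythroid markers stayed past 2-fold. These ratios can rest on under 50 UMIs. Kdr stood at 925 and 218 CPM (log2 2.08), Plat at 1174 and 186 CPM (2.66), and Nrp1 and Tbx3 had ratios of 1.67 and 1.66. Lpl had 3.46 on 35 and 13 UMIs, below the minimum, while Smad6 and Hecw2 fell short of 2-fold as given above. On the other side Rgcc had -3.20 and Igfbp3 -2.48, while Tspan8 came to -0.72. Among genes at the UMI minimum in this set, the largest ratios toward Ehd3-only barcodes were those of contractile and mural genes. They were Myl9 (3.54, and 1.60 over all barcodes) and Tpm2 (3.49, and 1.89). Acta2 (2.47), Tagln (1.95, and 0.96) and the pericyte gene Rgs5 (1.57, and 0.49) were also among the 15 largest. Tpm2, Acta2 and Tagln had 58, 133 and 77 UMIs in the Ehd3-only barcodes of this set. Over all 124 Ehd3-only barcodes they were found in 9, 15 and 20, and single barcodes held 54, 125 and 57 UMIs. These ratios can therefore rest on few barcodes. The part of the contractile and mural genes in the other ratios was not tested.

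Within that set the capillary genes were also read by library. In library 1 (12 and 40 barcodes) Kdr had a ratio of 1.73 (1.06 to 2.41), Plat 0.84 (0.10 to 1.54) and Nrp1 1.19, and in library 2 (22 and 14 barcodes) Kdr had 2.57 and Plat 3.48. Leaving out the haemoglobin-bearing barcodes too (35 and 92 barcodes left) gave 2.03 for Kdr, 2.56 for Plat, 3.49 for Lpl and -2.38 for Igfbp3. Ednrb (0.42), Nostrin (0.95, -0.37 to 2.15) and Gpihbp1 (0.23) were then short of 2-fold. Other values moved too: Igfbp5 went from 2.07 to 1.33, Esm1 from 2.25 to 0.58 and Gpihbp1 from 1.65 to 0.59 when podocyte-marker barcodes were left out, and Cldn5 turned from 0.77 to -1.12.

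Library 2 weighed on the size of the ratios. Without it, 62 genes were higher in Ehd3-only and 67 in Plvap-only barcodes, Kdr had a ratio of 1.46, Plat 1.73, Nrp1 1.29 and Igfbp3 -1.52, while Emcn came to -0.06 and Esm1 to 0.01. Gpihbp1 turned to -0.65 without it.

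Genes that set 1 library apart were sought among 1752 genes with at least 200 UMIs over all endothelial barcodes by comparing the endothelial barcodes of 1 library with those of the others. At least 2-fold higher were 32 genes (1.83%) in library 1, 103 (5.88%) in library 2, 35 (2%) in library 3, 62 (3.54%) in library 4 and 45 (2.57%) in library 5. At least 2-fold lower were 115 (6.56%), 41 (2.34%), 146 (8.33%), 189 (10.8%) and 140 (7.99%). No label says which condition a library is, and the 16 and 18 barcodes of libraries 4 and 5 let a few cells set a level. The genes named next exclude those whose ratio was as large in the proximal tubule barcodes of the same libraries.

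Library 1 was high in Icam1, at 412 CPM against 102 in the others (log2 2.01), where its proximal tubule barcodes had -0.04. It was found in 46 of the 124 barcodes, and 1 of them held 32.1% of the UMIs (286 CPM without it). Acta2 was also high there (1691 against 283 CPM, log2 2.58), as it was in its proximal tubule barcodes (2.25), and so were Tpm2, Mustn1 and Sbno2 (843 against 295 CPM, 1.52), an inflammatory response regulator. Single barcodes of library 1 held 44.0% of its Acta2, 40.1% of its Tpm2 and 43.5% of its Mustn1 UMIs, against 5.61% of Sbno2, and library 4 stood higher than library 1 in Acta2 (2315 CPM), Tpm2 (1003 against 548 CPM) and Mustn1 (478 against 259 CPM). Library 2 was high in the haemoglobin genes Hbb-bs (with 4.32 in proximal tubule), Hba-a2 and Hba-a1 and in the podocyte gene Clic3 (290.3 against 3.86 CPM, 6.23), and low in Aqp1 (-3.14), Lrg1 and Scin, although Lrg1 was no higher in library 5.

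Library 3 was high in Spp1 (osteopontin), at 5874 against 617 CPM, and its proximal tubule barcodes were high too (log2 2.60). It was also high in Lrg1, a modulator of TGF-beta signals in vessels (332 against 54.8 CPM, 2.60, with 1.35 in proximal tubule), which stood at 324 CPM in library 4 too, and in Mgp (2107 against 540.0 CPM, 1.96, with -0.45 in proximal tubule), with 27.8% of its UMIs in 1 barcode. Library 4 was high in Aqp1 and in the contractile genes Myh11, Tagln and Tpm2, but each of the latter was found in only 2 of its 16 barcodes, and 44.1% of the Aqp1 UMIs lay in 1 barcode. Library 5 was high in Aqp1 (3085 against 425 CPM), Scin and the small heat shock gene Hspb1 (2073 against 623 CPM), and low in Clu (-5.96, with -4.19 in proximal tubule), Acta2 and Spp1.

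Several capillary and stress genes had an order across libraries that is best read from their values. Fabp4 stood at 860.0, 1469, 1399, 1744 and 3786 CPM in libraries 1 to 5, Cldn5 at 281, 422, 470.3, 1312 and 941 CPM, and Sox17 at 98.8, 133, 291, 278 and 461 CPM. Hspb1 stood at 175, 782, 1018, 1065 and 2073 CPM. In each of these 4 genes library 1 was lowest, with an interval that overlapped that of library 2 only for Sox17. The interferon-stimulated genes Isg15 and Rsad2 were lowest in library 3 (141 and 116 CPM) and highest in libraries 1 and 5 (512 and 491 CPM for Isg15, 511 and 651 CPM for Rsad2), while the intervals of libraries 3 and 4 overlapped.

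**Figure D5:**
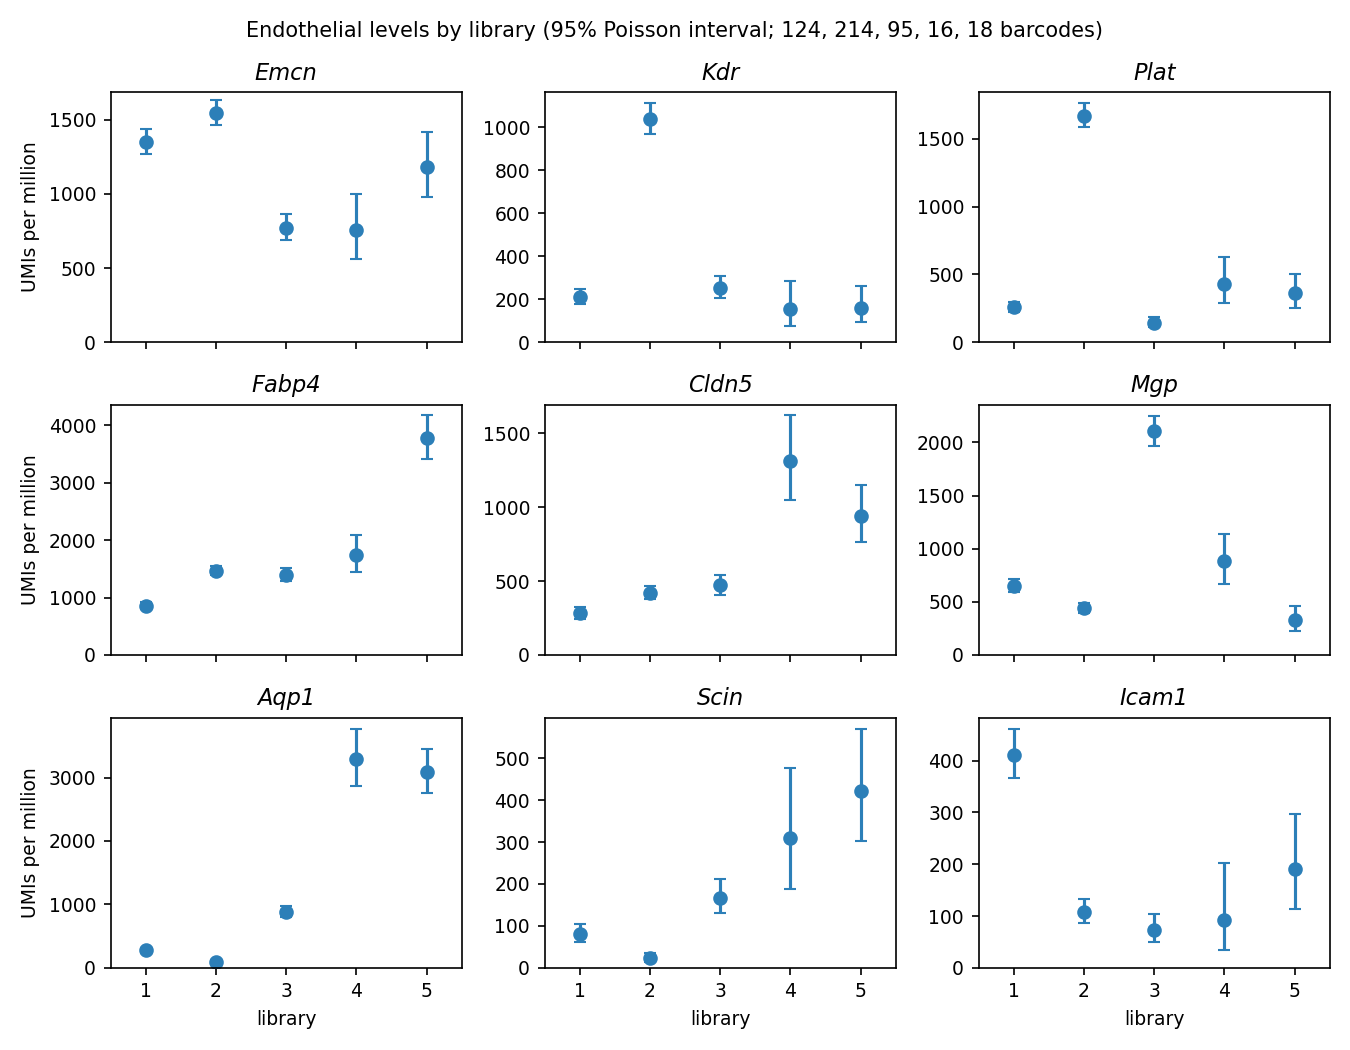
Summed level in endothelial barcodes (CPM, axes from 0) of 9 genes in libraries 1 to 5, with 95% Poisson intervals. Kdr and Plat are high in library 2, Aqp1 in libraries 4 and 5, Mgp in library 3 and Icam1 in library 1.

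Endothelial barcodes differed from all other filtered barcodes as the selection required, which is given for completeness. Of 616 genes with at least 500 UMIs in them, 281 (45.6%) were at least 2-fold higher and 80 (13%) at least 2-fold lower. Largest were Jam2 (log2 8.97), Adgrl4 (8.86), Apold1, an immediate early gene of endothelium (8.78), Fbln5 (8.66) and Ptprb (8.63), none of them a gate gene, followed by the gate gene Cdh5 (8.58) and by Lrrc32, which displays latent TGF-beta (8.32).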

How the data were processed

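The authors aligned reads to mm10 and counted UMIs with Cell Ranger 6.0 (per the submitters' processing notes). The deposited matrix holds raw UMI counts of 32285 genes in 10474594 barcodes of 5 merged libraries (82426945 to 139382799 UMIs each, 483015323 in all), with no cell calling, so limits on UMIs, genes and mitochondrial share were applied here. Every column was used (0 left out).

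UMIs were summed over barcodes and scaled to a total of 1000000 (CPM). Levels have exact Poisson intervals, ratios exact conditional binomial ones and shares Clopper-Pearson ones, at 95%. A gene entered a subset comparison with at least 50 UMIs in both subsets together, and was called at a 2-fold ratio. Against 0 UMIs a ratio was bounded with a floor of 3 UMIs over the subset. Proximal tubule and leukocyte barcodes were taken from the same filtered barcodes by marker genes. No doublet caller was run. There are no replicates, and no p-value was computed.

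Genes were named by these rules: gate and subset genes, members of 37 lists (394 of 397 entries matched, without Cd99, Mx1 and Ccl21a), the 15 largest ratios in each direction on the same side in libraries 1 and 2, the largest endothelial ratios, and 5 genes at each end per library. Members, lists and rules were chosen with earlier results of these data known. Alternatives covered depth, mitochondrial, marker and tubule limits, deep barcodes, thinning, scaling, UMI minimum and leaving out each library. The ratio step was tested on simulated data with known changes. Python 3.11.15, numpy 2.4.6, pandas 2.3.3, scipy 1.17.1 and matplotlib 3.10.9 were used. Values of 2 genes that these rules name are not reported here.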

Additional observations from a re-analysis of the deposited data

How the results depend on the processing

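No paired analysis was possible because each group is 1 sample and no label ties a library number to a group. Exclusions by podocyte or mural markers, and of the barcode with most UMIs of a gene, were chosen after seeing the data.

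The share of endothelial barcodes with a Plvap UMI came to 39.9% at 1000 or more UMIs, 42.0% with at least 3 gate genes and 50.9% in barcodes over a depth limit like the first step of Cell Ranger's cell calling, which kept 171 endothelial barcodes and 136 genes higher in Ehd3-only barcodes. Thinned to 1000 UMIs, Ehd3 was found in 21.7% and Plvap in 18.2%, with 31 and 36 genes called. Without podocyte-marker barcodes there were 299 endothelial barcodes, 22.7% with Ehd3 and 39.1% with Plvap, and 45 and 59 genes called. Without podocyte-marker or mural-marker barcodes there were 274, 21.9% with Ehd3, and 43 and 52 genes. As a mean over barcodes 366 and 264 genes were called, with no UMI minimum 2042 and 827, and with at least 200 UMIs 34 and 32. Leaving out 1 library at a time gave 253 to 451 endothelial barcodes, 21.7% to 42.2% with Ehd3, 29.2% (without library 1) to 43.9% with Plvap, 62 to 226 genes higher in Ehd3-only and 67 to 118 in Plvap-only barcodes. The lowest counts, the lowest Ehd3 share and the highest Plvap share were those without library 2. Settings that drop or thin barcodes, or alter the UMI minimum, also alter how many genes are compared. The counts of called genes are therefore not shares and do not compare directly between such settings.

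Over 19 settings, 1274 of 1634 log2 ratios of 87 genes stayed within their counting interval or, for bounds, kept their direction, 356 moved further, sign changes of values under 2-fold (Emcn, Cldn5) included, and 4 values past 2-fold turned. These were Ren1 at 2.27 without barcodes over 3 times the median depth, Ednrb at -0.43 and Gpihbp1 at -0.65 without library 2 (up to 1.76 and 1.91 without library 1), and Gja4 at 0.71 after thinning, and the interval of each included 0. The cause was not tested. Libraries 4 and 5, with 16 and 18 endothelial barcodes, limit what can be read from their levels.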
